A study of Mus musculus with 44 samples.

Results

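Rhox5, Rhox6 and Rhox9 are 3 homeobox genes of a single cluster on the mouse X chromosome. They were taken from the deposited expression files by their gene names, and their values were summed per gene identifier, which gave 3 of the 32287 genes quantified. In mm10 coordinates Rhox5 (ENSMUSG00000095180) lies at chrX:37804842-37808876 on the plus strand, Rhox6 (ENSMUSG00000006200) at chrX:37826910-37829857 on the plus strand and Rhox9 (ENSMUSG00000068048) at chrX:37899097-37901770 on the minus strand. All 3 are annotated as protein-coding.

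Their expression was followed in 44 low-input poly(A) RNA-seq libraries of lineage-traced mouse embryos, in which the descendants of the host embryo and of the added stem cells could be told apart by colour. An mCherry+ morula labelled CD1/G4, from CD-1 females and males of an F1G4-derived mCherry colony kept by crosses to C57BL/6J, which supplied the extraembryonic lineages, was aggregated with GFP+ embryonic stem cells of the male F1G4 line (G4 in the labels), a clonal line with EGFP under the CAG promoter at Rosa26, which supplied the embryo. At E6.5 the groups were the GFP+ epiblast (Epi), the distal extraembryonic endoderm (exEndo 1) and the proximal extraembryonic endoderm (exEndo 2), each with 4 libraries from single wild-type embryos, isolated by hand. At E9.5 they were mCherry+ extraembryonic midgut and hindgut cells (exMidgut and exHindgut, together exGut), GFP+ embryonic gut cells with a low mCherry signal (emMidgut and emHindgut, together emGut) and mCherry+ yolk sac endoderm (YsEndo), sorted by flow cytometry as EPCAM+ cells, each with 4 wild-type libraries that pool 4 embryos. At E13.5 they were EPCAM+ colon and small intestine cells from single embryos, with 3 libraries per group. The mCherry+ cells at this stage (exColon and exSI) carried a Trp53 KO made with Cas9 in the host zygotes, and the GFP+ cells (emColon and emSI) were wild type.

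Every extraembryonic group descends from the host and every embryonic group from the stem cell line, so origin, strain background, reporter and, at E13.5, Trp53 genotype change together and cannot be told apart. The stem cells are male, whereas host embryos may be of either sex, so sex may also change with origin. At E9.5 the X-inactivation RNA Xist was at 14.4 to 113 TPM in the host-derived libraries and at most 0.252 in emGut. At E13.5 it was at most 1.37 TPM in any library. The part of sex in the differences by origin was not tested. The study ascribes the faint mCherry signal of the emGut cells to remnants of dying extraembryonic cells. The study sorted these cells, rather than cells with GFP alone, because the latter gate at E9.5 also holds primordial germ cells and surface ectoderm.

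Rhox genes (reproductive homeobox, X-linked) encode transcription factors with a homeodomain, the DNA-binding fold shared by developmental regulators such as the Hox proteins. Rhox5, first described as Pem, is the founding member and is known from the placenta, from visceral and yolk sac endoderm and from Sertoli and epididymal cells. Rhox6 and Rhox9, first named Psx1 and Psx2 for their expression in the placenta, are close copies of each other and are also known from germ cells. In cells of the embryo proper the cluster is known to be methylated and silent, and in extraembryonic lineages some of its genes are known to be active.

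The similarity of Rhox6 and Rhox9 matters for the values of these 2 genes, because reads that match both copies cannot be assigned with certainty. Their coding sequences have the same length (681 nt without the stop codon, 227 codons) and are identical at 617 of 681 positions (90.6%), with no gap and a longest identical run of 161 bases. Rhox5 codes for 210 codons and is 50.4% identical to Rhox6 over the aligned positions. The third coding exon, 46 bases long in all 3 genes, shows the relation. It is printed 5′ to 3′ in the sense of transcription, with capitals at each base that differs from Rhox6 when the sequences are set base against base.
Rhox5, mm10 chrX:37806074-37806119, plus strand: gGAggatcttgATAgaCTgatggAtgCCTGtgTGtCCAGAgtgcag
Rhox6, mm10 chrX:37828415-37828460, plus strand: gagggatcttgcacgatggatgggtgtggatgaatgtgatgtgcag
Rhox9, mm10 chrX:37900280-37900325, minus strand: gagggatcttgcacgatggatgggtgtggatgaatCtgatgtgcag

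In this exon Rhox9 differs from Rhox6 at 1 base and Rhox5 differs at 19. Rhox6 and Rhox9 differ at 3 of 82 bases in the first coding exon, 41 of 460 in the second, 1 of 46 in the third and 19 of 93 in the fourth. The stretch of 120 bases where they differ most lies in the second coding exon and holds 24 differences, marked by capitals. It is shown because reads from here separate the copies.
Rhox6, mm10 chrX:37827626-37827745, plus strand: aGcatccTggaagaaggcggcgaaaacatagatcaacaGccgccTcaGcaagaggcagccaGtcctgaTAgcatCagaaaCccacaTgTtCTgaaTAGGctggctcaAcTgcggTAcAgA
Rhox9, mm10 chrX:37901032-37901151, minus strand: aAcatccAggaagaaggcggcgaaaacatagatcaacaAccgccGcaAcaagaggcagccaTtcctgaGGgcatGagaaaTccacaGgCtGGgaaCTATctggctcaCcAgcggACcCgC

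Of the windows of 100 bases in the Rhox6 transcript, 62 of 911 (6.81%) occur unchanged in Rhox9, and 62 of the 2323 windows of the longest Rhox9 transcript (2.67%) occur in Rhox6. None of the 655 Rhox5 windows occurs in another Rhox gene. Read length was 100 bases, so most windows of that length identify 1 copy, and a small share of the Rhox6 and Rhox9 values remains uncertain. The gene model of Rhox5 in GENCODE begins at 37804842, whereas RefSeq places its start at 37754608, 50.2 kb upstream, so reads from exons upstream of the GENCODE model were not counted.

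Values are TPM, a unit of relative transcript abundance. They scale each library to the same total and correct for gene length. The bases covered per library came to 3.53 to 12 Gb (median 6.80), and 10382 to 13596 genes lay above 1 TPM. Read counts were not used, so the counting error of a single low value is unknown. The reporters followed the labels: mCherry was at 1731 to 8667 TPM in the host-derived libraries and at 0 to 6.61 in the stem cell-derived libraries. EGFP was at 180 to 880 TPM in the stem cell-derived libraries and at 0 to 15.9 in the host-derived ones, with the highest of these in exEndo 1. The summed TPM of 7 epiblast markers was 3295 to 4840 in Epi, where 8 visceral endoderm markers summed to 11.7 to 14, although the sample protocol of this group names embryonic visceral endoderm. Those 8 markers summed to 6481 to 16635 TPM in exEndo 1 and exEndo 2 and to 52924 to 61990 in YsEndo, and 6 gut endoderm markers summed to 1128 to 3007 in the E9.5 gut libraries. Blood markers summed to at most 11.0 TPM in any library.

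Rhox5 was the most abundant of the 3 genes in every extraembryonic group. Its mean TPM was 1870 ± 102 in YsEndo (SD, n = 4), 1753 ± 121 in exEndo 2 and 1608 ± 162 in exEndo 1. It was 1237 ± 289 in exSI (n = 3), 1032 ± 176 in exMidgut, 981 ± 283 in exColon (n = 3) and 814 ± 53.1 in exHindgut. These neighbours in the order overlapped in their library values. The next group, emMidgut, had 11.4 ± 11.8 TPM, and no library of it reached the exHindgut values. Epi had 3.96 ± 6.30 and emHindgut 1.88 ± 2.52, and every emColon and emSI library was listed at 0.

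Rhox6 followed a different order among the extraembryonic groups. Its mean TPM was highest in exColon (166 ± 60.7) and exHindgut (134 ± 28.4), followed by exMidgut (80.0 ± 54.9), exSI (73.4 ± 49.2), YsEndo (72.6 ± 14) and exEndo 2 (66.6 ± 12.6). The emMidgut group came next with 18.6 ± 30.8, and its highest library reached the exEndo 2 values. Rhox6 was at 14.4 ± 7.47 TPM in exEndo 1, 0.295 ± 0.590 in emHindgut and 0.0707 ± 0.102 in Epi, and at 0 in the embryonic libraries of E13.5. Among neighbouring groups in this order, only exEndo 1 and emHindgut did not overlap.

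Rhox9 was the rarest of the 3 in every extraembryonic group and had its highest mean in an embryonic one. Its mean TPM was 35.0 ± 40.4 in emMidgut, 10.0 ± 8.57 in exHindgut, 7.78 ± 6.66 in exMidgut, 3.65 ± 3.20 in exEndo 2, 3.15 ± 5.23 in exSI and 2.89 ± 1.27 in YsEndo. It was at or below 0.370 in the remaining groups. The spread within groups was of the size of the means, and among neighbours in the order only YsEndo and exEndo 1 did not overlap.

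**Figure D1:**
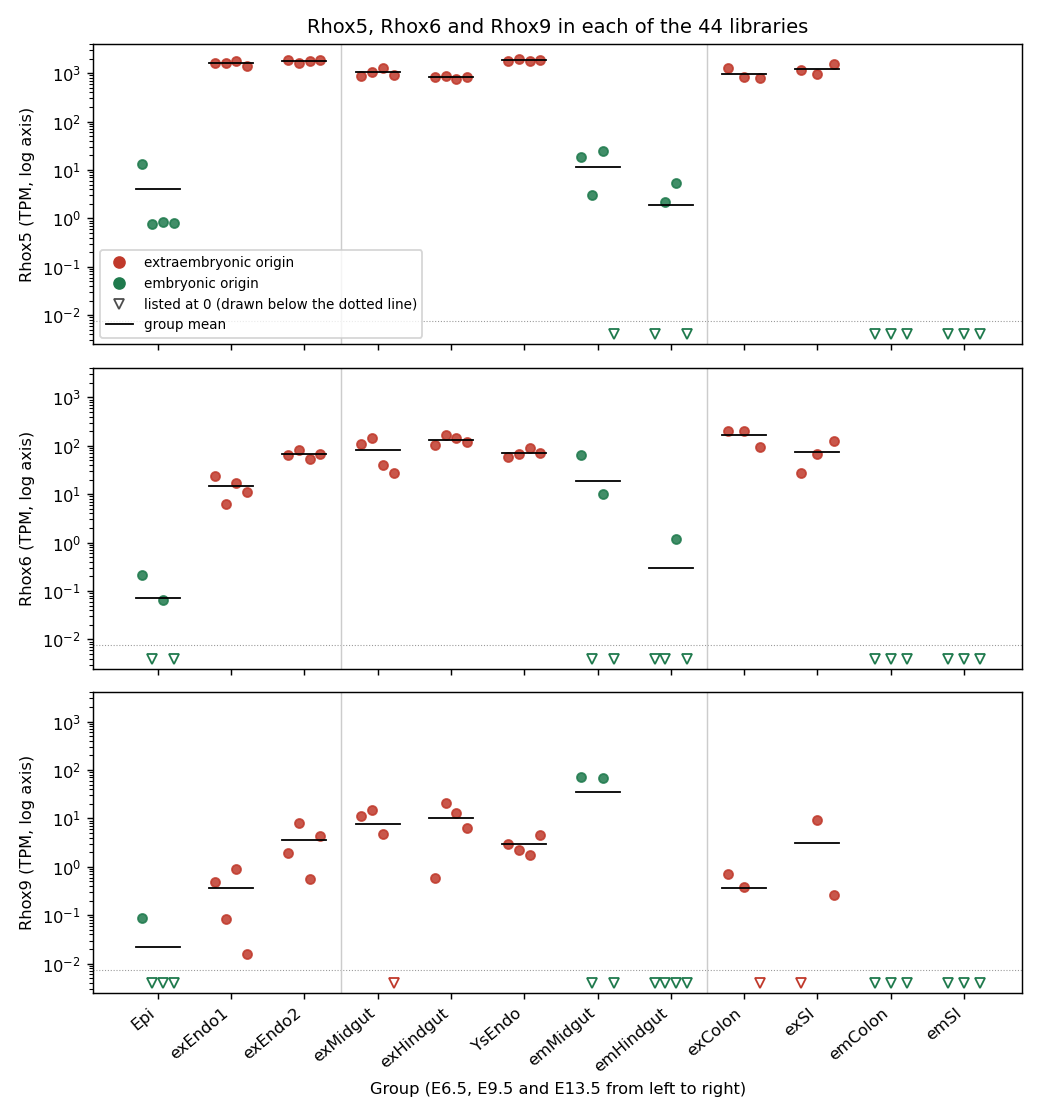
TPM of Rhox5, Rhox6 and Rhox9 (vertical axis, logarithmic, with libraries listed at 0 drawn below the dotted line) in each of the 44 libraries, by group (horizontal axis). Each point is 1 library and each bar a group mean; Rhox5 lies between 740 and 2005 TPM in the extraembryonic libraries and at 24.1 or less in the embryonic ones.

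At E6.5 Rhox5 and Rhox6 were already high in the extraembryonic endoderm and close to 0 in the epiblast. Rhox5 was at 1603, 1626, 1800 and 1403 TPM in the 4 exEndo 1 libraries and at 1833, 1586, 1743 and 1849 in exEndo 2. In Epi it was at 13.4, 0.765, 0.850 and 0.807, so that the groups were far apart and Epi replicate 1 stood above the other 3. The difference of mean log2(TPM + 1), the scale used for every test, was 9.04 between exEndo 1 and Epi (SE 0.563, limma adjusted p = 1.55e-07). Between exEndo 2 and Epi it was 9.17 (SE 0.550, limma adjusted p = 4.38e-08). A gene was called where the adjusted p was under 0.05 and the absolute difference over 1. By this rule 33.4% of all genes tested were called between exEndo 1 and Epi (19.8% as higher in exEndo 1) and 35.8% between exEndo 2 and Epi (20.4% as higher in exEndo 2), so a call by itself is common in these comparisons.

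Rhox6 separated both endoderm groups of E6.5, which Rhox5 did not. It was at 64.2, 83.1, 52.5 and 66.6 TPM in exEndo 2 and at 23.4, 6.26, 17.2 and 10.8 in exEndo 1, with no overlap. The difference of exEndo 1 from exEndo 2 was −2.26 (SE 0.314, limma adjusted p = 0.000836), in a comparison that called 6.41% of the genes tested and 2.45% as lower in exEndo 1. For Rhox5 it was −0.13 (95% confidence interval −0.35 to 0.09, adjusted p = 0.437). Against Epi, where Rhox6 was at most 0.217 TPM and listed at 0 in 2 libraries, Rhox6 was higher by 3.71 in exEndo 1 (SE 0.316, adjusted p = 1.72e-06) and by 5.97 in exEndo 2 (SE 0.176, adjusted p = 1.55e-10).

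Rhox9 was barely detected at E6.5 and did not pass the filter of more than 1 TPM in 4 libraries, so it was not tested there. It was at 1.92, 7.86, 0.562 and 4.27 TPM in exEndo 2 and at 0.480, 0.0818, 0.902 and 0.0154 in exEndo 1. In Epi it was listed at 0 in 3 libraries and at 0.0894 in replicate 1. Rhox5, above 1 TPM in Epi replicate 1 only, and Rhox6 passed the filter against Epi through the endoderm libraries. In the Epi libraries the mCherry transgene was at 0 to 0.822 TPM.

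Among host-derived libraries of E6.5 the X-inactivation RNA Xist split the replicates. It was at 231, 1.51, 123 and 1.43 TPM in exEndo 1 and at 490, 2.96, 199 and 1.58 in exEndo 2. Rhox5 in the same libraries stayed between 1403 and 1849 TPM. In exEndo 1, replicates 1 and 3, with Xist high, held more Rhox6 (23.4 and 17.2 TPM) than replicates 2 and 4 (6.26 and 10.8). In exEndo 2 the order was the other way, with 64.2 and 52.5 TPM beside 83.1 and 66.6. Rhox9 followed the order of Rhox6 in each group. Replicates 2 and 4 of exEndo 1 also held the most EGFP of this group (13.7 and 15.9 TPM beside 1.09 and 0.0664). The epiblast markers Pou5f1, Nanog, Tdgf1 and Dnmt3b were highest in these replicates, whereas Utf1, Otx2 and Fgf5 were highest in replicate 1. The part of sex and of epiblast cells in the values of these X-linked genes was not tested.

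In the gut at E9.5 the question was whether cells of the same organ differ by origin, and Rhox5 and Rhox6 differed strongly. Rhox5 was at 891, 1080, 1261 and 895 TPM in exMidgut and at 814, 863, 740 and 839 in exHindgut. In emMidgut it was at 18.6, 3.01, 24.1 and 0, and in emHindgut at 0, 2.18, 5.34 and 0. The lowest exGut library thus lay far above the highest emGut library, and the difference was 7.92 (SE 0.588, limma adjusted p = 3.74e-08). Of all genes tested, 2.35% were called in this comparison, and 1.08% were called as higher in exGut.

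Rhox6 was also higher in exGut, with more scatter. It was at 108, 143, 40.6 and 27.8 TPM in exMidgut and at 105, 170, 144 and 119 in exHindgut. In emMidgut it was at 64.2, 0, 10.3 and 0, and in emHindgut at 0, 0, 1.18 and 0. Replicate 1 of emMidgut therefore lay within the range of exMidgut, and no emHindgut library did. The difference of exGut from emGut was 5.22 (SE 0.760, limma adjusted p = 0.000265). The emGut libraries alone would not have met the filter, so Rhox6 entered this test through exGut. Within the midgut alone the difference was 3.66 and no longer passed (adjusted p = 0.0744).

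For Rhox9, whose Rhox6-like sequence is shown above, no difference by origin passed the test. It was at 11.4, 14.9, 4.84 and 0 TPM in exMidgut and at 0.586, 20.5, 12.8 and 6.20 in exHindgut, and at 71.7, 0, 68.3 and 0 in emMidgut. All 4 emHindgut libraries listed it at 0. The difference of exGut from emGut was 1.20 (SE 1.02, 95% confidence interval −0.94 to 3.34, limma adjusted p = 0.616). The midgut alone gave −0.53, and without emMidgut replicates 1 and 3, an alternative added after the values were seen, the difference was 2.74. The 6 emGut libraries then left all list Rhox9 at 0, so this outcome follows from the choice of libraries.

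**Figure D2:**
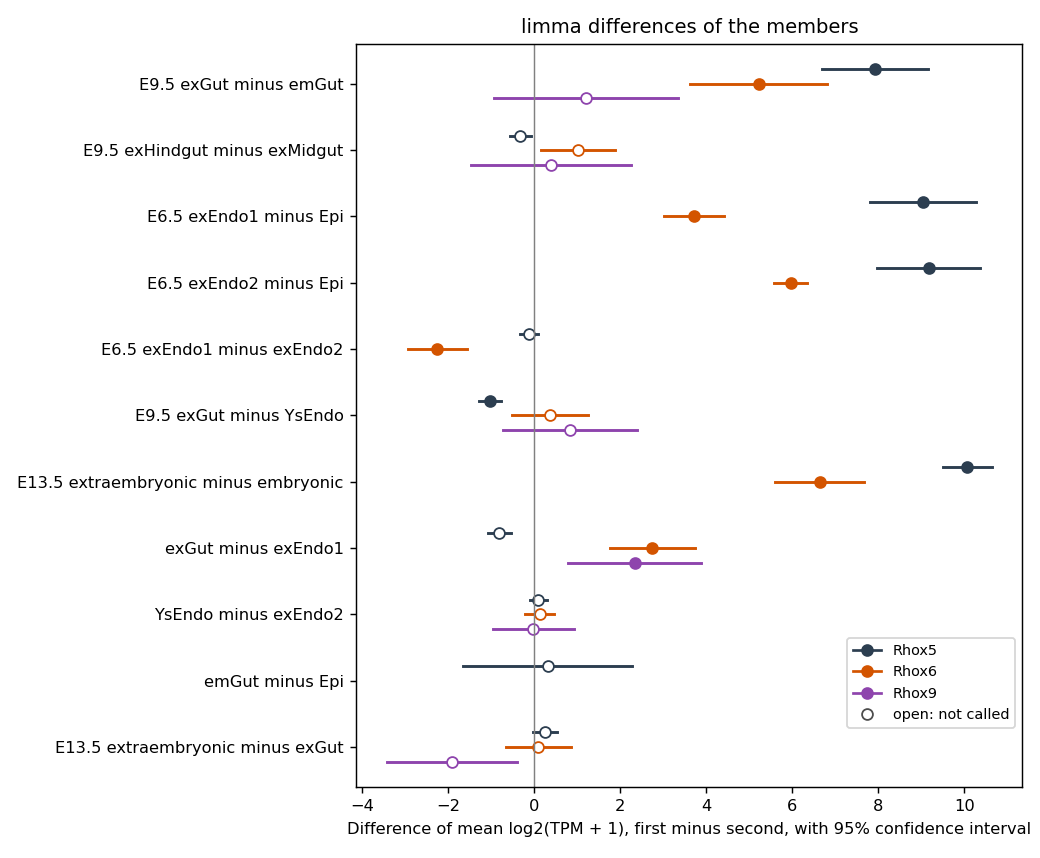
Difference of mean log2(TPM + 1) (horizontal axis, first group minus second, with its 95% confidence interval) for each tested gene and comparison (vertical axis). Filled points were called and open points were not; Rhox5 and Rhox6 lie far to the right in each extraembryonic minus embryonic comparison, and the E13.5 points are set against libraries listed at 0, so they give no fold.

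The 2 emMidgut libraries with Rhox9 also held the most Rhox5 and Rhox6 of the embryonic gut. As a percentage of the mean exGut level, Rhox5 reached 2.02% in emMidgut replicate 1 and 2.61% in replicate 3, Rhox6 59.9% and 9.56%, and Rhox9 805% and 767%. The 3 genes were thus in another proportion than in exGut cells, with Rhox9 highest. The mCherry transgene of the host was at 5.29 TPM (0.0737% of the exGut mean) in replicate 1 and listed at 0 in replicate 3.

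Some markers of germ cells and of pluripotency moved with these libraries. Dppa3 (Stella), a defining gene of primordial germ cells, was at 224, 0, 183 and 0 TPM in emMidgut replicates 1 to 4 and at 0 in all emHindgut libraries. Dnd1, which protects germ cell RNAs, was at 28.5, 0, 17.2 and 3.02 TPM in emMidgut, and the pluripotency factor Pou5f1 at 93.6, 0, 131 and 0. Nanog was at 15.8, 0, 9.75 and 0 and Utf1 at 27.4, 0, 18.0 and 0.606, again highest in replicates 1 and 3. Pou5f1, Nanog and Utf1 belong to the list of 7 epiblast markers, and the rest of that list did not follow. Otx2 and Tdgf1 were at 0 in every emMidgut library and Fgf5 was at most 0.330 TPM. Dnmt3b, at 11.5, 22.7, 17.2 and 25.8 TPM, was lowest in replicates 1 and 3.

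Over the whole list of 6 germ cell markers, the summed TPM was 329.8, 71.5, 308 and 89.4 in the 4 emMidgut libraries, 7.51 to 15.2 in emHindgut, 57.3 to 107 in exMidgut and 10.9 to 26 in exHindgut. The number of the 6 markers above 1 TPM was 4, 2, 5 and 4 in emMidgut. Most of the sum outside replicates 1 and 3 came from Prdm1, which gut endoderm also expresses and which was at 74.4, 66.0, 101 and 83.2 TPM in emMidgut. The later germ cell gene Ddx4 was at 0.272, 0.390, 4.65 and 0 and Dazl at 1.92, 0, 0 and 2.24. Nanos3, another germ cell gene, did not follow the pattern, at 0.506, 5.13, 2.21 and 1.02 TPM with its lowest value in replicate 1. Fewer cells of a type and less RNA per cell cannot be told apart in such bulk libraries, and the part of germ cells in the Rhox values of emMidgut was not tested.

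**Figure D3:**
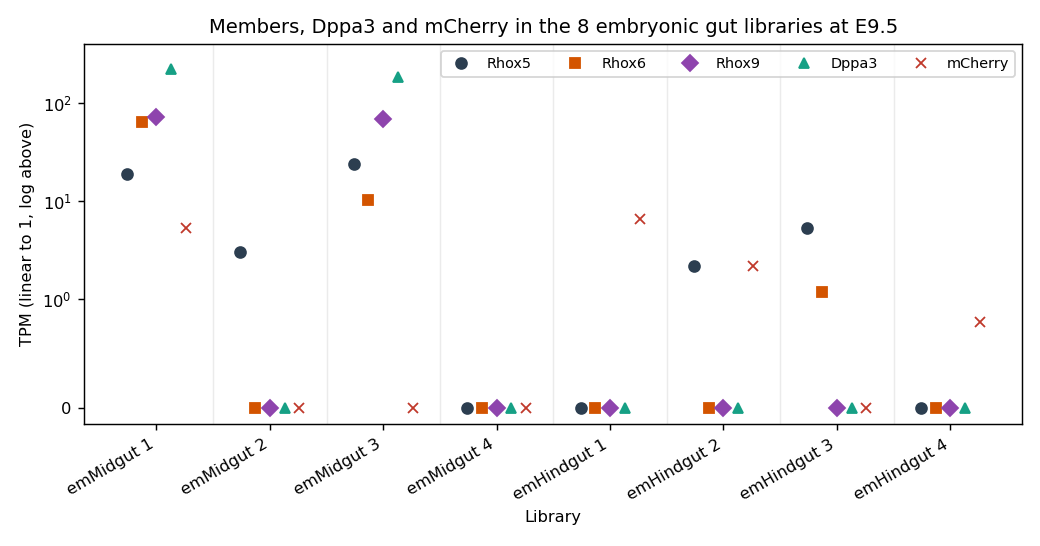
TPM (vertical axis, linear up to 1 and logarithmic above) of Rhox5, Rhox6, Rhox9, Dppa3 and mCherry in the 8 emGut libraries (horizontal axis); each symbol is the value of 1 gene in 1 library. Rhox9 and Dppa3 lie above 0 in emMidgut replicates 1 and 3 only, whereas mCherry is highest in emHindgut replicate 1, where the 3 Rhox genes are listed at 0.

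Rhox signal and mCherry did not follow each other in the remaining emGut libraries. In emHindgut, mCherry was at 6.61, 2.16, 0 and 0.786 TPM, and replicate 3, with mCherry at 0, held the most Rhox5 (5.34 TPM) and the only Rhox6 (1.18 TPM). Mesenchyme markers summed to 99.7 to 180 TPM in emMidgut and 19.0 to 59.1 in exMidgut, and neural markers to 10.5 to 57.4 and 0 to 3.95. Visceral endoderm markers were higher in exMidgut (5842 to 12160 TPM) than in emMidgut (887 to 1595), and their part in the difference by origin was not tested. In hindgut the same markers summed to 32.5 to 666 TPM in exHindgut and 13.2 to 47.5 in emHindgut.

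Rhox genes are also known to be active in trophoblast. The trophoblast genes Elf5 and Tpbpa were at most 0.0715 and 0.388 TPM in exGut, and Hand1 at most 2.44. Eomes was at most 0.149 TPM there, Tfap2c at most 4.22 and Ascl2 at most 4.87. The sum over 7 trophoblast markers was 105 to 164 TPM in exMidgut and 128 to 203 in emMidgut, mostly from Krt7, an epithelial keratin. In exEndo 2, Elf5 was at 0.155, 7.02, 0.659 and 6.51 TPM and Tfap2c at 0.559, 12.9, 0.765 and 3.70. Hand1 was at 0.0493, 4.31, 0.0663 and 1.64. Replicates 2 and 4, the higher for these genes, also held the most Rhox6 and Rhox9 of this group. Ascl2 was high in replicate 2 alone (8.25 TPM), and Eomes and Krt7 did not separate these replicates. The part of trophoblast in the exEndo 2 values was not tested.

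Along the gut, no difference between exHindgut and exMidgut was called for the 3 genes, in a comparison that called 11.3% of all genes tested. Rhox6 differed by 1.01 (SE 0.399, limma adjusted p = 0.0985), Rhox5 by −0.33 (adjusted p = 0.0567) and Rhox9 by 0.39 (adjusted p = 0.810). The lowest exMidgut values of Rhox6 were those of replicates 3 and 4. Without exMidgut replicate 1 the Rhox6 difference was 1.26 (adjusted p = 0.0479) and without replicate 2 it was 1.39 (adjusted p = 0.0182), and both passed.

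A test of whether the difference by origin itself changed from midgut to hindgut passed for none of the 3 genes. In this interaction, for which 0.0965% of the genes tested passed, the estimate was 1.33 for Rhox5 (adjusted p = 0.822), 3.11 for Rhox6 (adjusted p = 0.522) and 3.46 for Rhox9 (adjusted p = 0.650). The Rhox5 estimate was −0.41 without emMidgut replicates 1 and 3.

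The yolk sac endoderm derives from the proximal extraembryonic endoderm and remains extraembryonic, whereas exGut cells join the gut. Rhox5 was at 1771, 2005, 1818 and 1884 TPM in YsEndo, above every exGut library. The difference of exGut from YsEndo was −1.04 (SE 0.123, limma adjusted p = 5.21e-06), just past the size needed for a call, and 42.4% of all genes were called here, 10.0% as lower in exGut. With exMidgut alone the difference was −0.87 and without exHindgut replicate 3 it was −0.99, so that the call was lost, and median-ratio rescaling gave −1.63.

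Rhox6 in YsEndo was at 59.0, 67.5, 92 and 71.8 TPM, within the exGut range. Its difference was 0.37 (95% confidence interval −0.52 to 1.25, limma adjusted p = 0.452). Rhox9 in YsEndo was at 2.96, 2.24, 1.72 and 4.64 TPM, with a difference of 0.83 (95% confidence interval −0.73 to 2.39, adjusted p = 0.332). Both signs turned under another scaling of the libraries, to −0.22 for Rhox6 with median-ratio rescaling and to −0.09 for Rhox9 with quantile normalization. The median of all genes in this comparison was 0.59, so Rhox5 was lower in exGut while most genes were higher there.

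On the path from distal endoderm at E6.5 to gut at E9.5, Rhox6 and Rhox9 were higher and Rhox5 was lower. Rhox6 was higher in exGut than in exEndo 1 by 2.75 (SE 0.459, limma adjusted p = 0.000206) and Rhox9 by 2.33 (SE 0.728, adjusted p = 0.0164), and both were called, as were 30.3% of all genes, 18.8% as higher in exGut. No exEndo 1 library had Rhox9 above 1 TPM, so Rhox9 passed the filter through exGut alone and its call says little. Rhox5 was lower by 0.81 (SE 0.130, adjusted p = 0.000137), a difference under the size needed for a call. Each exGut library lay above all exEndo 1 libraries for Rhox6 and below all of them for Rhox5. For Rhox9 exMidgut replicate 4, listed at 0, and exHindgut replicate 1, at 0.586 TPM, overlapped with exEndo 1.

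From proximal endoderm to yolk sac none of the 3 was called, in a comparison that called 29.6% of all genes. The difference of YsEndo from exEndo 2 was 0.09 for Rhox5 (95% confidence interval −0.10 to 0.29, limma adjusted p = 0.361). It was 0.12 for Rhox6 (−0.22 to 0.47, adjusted p = 0.513) and −0.03 for Rhox9 (−0.97 to 0.91, adjusted p = 0.959). The median of all genes was −0.41, and under median-ratio rescaling, which removes that shift, the values were 0.56, 0.58 and 0.30, respectively. From Epi to emGut only Rhox5 passed the filter, with a difference of 0.31 (SE 0.922, adjusted p = 0.802) where 29.7% of genes were called, and its sign turned to −0.55 without emMidgut replicates 1 and 3.

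At E13.5 the targeted gene was read first. Trp53 was at 42.5, 124 and 122 TPM in exColon and 33.4, 167 and 117 in exSI, against 151, 226 and 245 in emColon and 172, 158 and 201 in emSI. Transcripts were thus still present in the libraries labelled Trp53 KO, and exSI replicate 2 lay within the wild-type range. A small Cas9 lesion need not lower the RNA of its gene, so this reading does not check the genotype.

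Rhox5 and Rhox6 did not overlap between origins in either organ at E13.5. Rhox5 was at 1307, 844 and 793 TPM in exColon and at 1186, 977 and 1548 in exSI, and was listed at 0 in the 6 embryonic libraries (limma with organ as a covariate, adjusted p = 7.21e-14). Rhox6 was at 203, 199 and 95.8 TPM in exColon and at 28.0, 66.4 and 126 in exSI, again with all embryonic libraries at 0 (adjusted p = 2.01e-07). Only 0.625% of the genes tested were called in this comparison and 0.481% as higher in the extraembryonic cells. No fold is given against libraries listed at 0, and both genes passed the filter through the extraembryonic libraries alone. The fit treated every library as independent, although organs and colours may come from the same embryos, so these p-values may overstate the replication.

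Rhox9 was nearly absent at this stage and could not be tested between origins. It was at 0.699, 0.374 and 0 TPM in exColon and at 0, 9.20 and 0.264 in exSI, so that a single exSI library held most of it. The interaction of origin and organ passed for neither of the other genes (Rhox5 −0.34, adjusted p = 0.915, and Rhox6 1.33, adjusted p = 0.746), and 0.0160% of all genes passed it. Dppa3 was listed at 0 in every library of E13.5. Mesenchyme markers summed to 95.5 to 410 TPM in the embryonic and 4.65 to 59.7 in the extraembryonic libraries, and their part in the difference was not tested.

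Between E9.5 and E13.5 the extraembryonic gut cells differed in genotype as well as in age, which cannot be told apart. Xist differed too, at 22.3 to 113 TPM in exGut and 0 to 1.37 in exColon and exSI, so the share of female cells may differ. The part of sex in this comparison was not tested. Rhox5 differed by 0.24 (95% confidence interval −0.03 to 0.52, limma adjusted p = 0.190) and Rhox6 by 0.09 (−0.67 to 0.85, adjusted p = 0.885), in a comparison that called 14.7% of all genes. For Rhox9 the difference was −1.92 (SE 0.723, adjusted p = 0.0660). It passed when exSI replicate 2 was left out (−2.46, adjusted p = 0.0203), when exMidgut replicate 4 was left out (−2.35, adjusted p = 0.0190) and when exHindgut replicate 1 was left out (−2.23, adjusted p = 0.0376). At E13.5 Rhox9 exceeded 1 TPM in exSI replicate 2 alone, so it met the filter through exGut and these passes say little. Without that library every E13.5 value lay under 1 TPM, so that outcome follows from the choice of libraries.

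Since each library holds all 3 genes, their plain proportion in TPM, with nothing added, is free of the scaling of the library. Rhox6 came to 0.893 ± 0.446% of the Rhox5 TPM in exEndo 1 (range 0.385 to 1.46%), 3.84 ± 0.969% in exEndo 2 and 3.89 ± 0.810% in YsEndo. In exMidgut it came to 12.2, 13.2, 3.22 and 3.11%, and in exHindgut to between 12.9 and 19.7% (mean 16.6 ± 3.50%). At E13.5 it was 5.76 ± 3.02% in exSI (2.36 to 8.12%) and 17.0 ± 5.87% in exColon (12.1 to 23.5%), which did not overlap. The hindgut and colon libraries thus all lay above the small intestine, yolk sac and E6.5 libraries, and 2 exMidgut libraries lay among them.

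Differences in the log2 proportion, each value plus 1 TPM, were tested by exact two-sided permutation of libraries, with adjustment over the 8 tests made. With 1 TPM added, the proportion depends on the scaling again where values are low. Between exGut and exEndo 1 the Rhox6 to Rhox5 proportion differed by 3.56 (exact p = 0.00404, adjusted 0.0162) and the Rhox9 to Rhox5 proportion by 3.14 (exact p = 0.00404, adjusted 0.0162), the smallest p that 8 against 4 libraries allow. These rest on the same values as the differences given above and are no separate evidence. No exEndo 1 library had Rhox9 above 1 TPM, so its proportion there was set mainly by the added 1 TPM and by Rhox5. Between exEndo 1 and exEndo 2 the Rhox6 to Rhox5 difference was −2.13 (exact p = 0.0286, adjusted 0.0571), the smallest p that 4 against 4 allow. For Rhox9 to Rhox5 it was −1.40 (exact p = 0.0857, adjusted 0.0980). The permutation treated libraries as unpaired, although exEndo 1 and exEndo 2 were paired by replicate number. Midgut and hindgut libraries may also share embryos, so these p-values may overstate the replication.

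Against YsEndo the exGut proportion was higher by 1.40 for Rhox6 (exact p = 0.0606, adjusted 0.0808) and by 1.87 for Rhox9 (exact p = 0.0606, adjusted 0.0808), and neither passed. From E9.5 to E13.5 the Rhox6 to Rhox5 difference was −0.16 (exact p = 0.784, adjusted 0.784). That of Rhox9 to Rhox5 was −2.16 (exact p = 0.0253, adjusted 0.0571), which passed on FPKM values (adjusted p = 0.0404). Every E13.5 library but exSI replicate 2 had Rhox9 under 1 TPM, so this proportion was set there mainly by the added 1 TPM and by Rhox5.

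**Figure D4:**
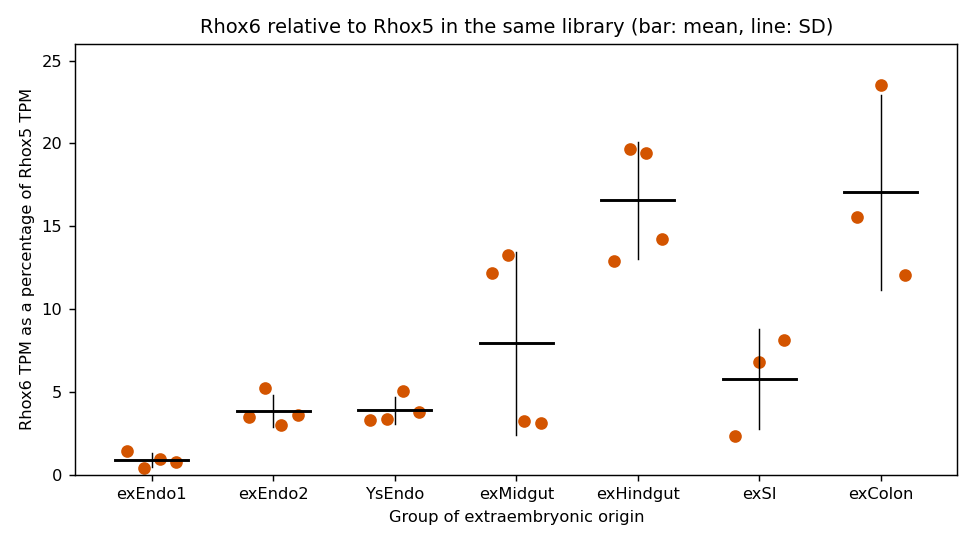
Rhox6 TPM as a percentage of the Rhox5 TPM of the same library (vertical axis) in the 7 extraembryonic groups (horizontal axis); points are libraries, bars are means and lines the SD. The values run from 0.385 to 1.46% in exEndo 1 up to 12.1 to 23.5% in exColon, and 2 exMidgut libraries lie near 3% while the other 2 lie at 12.2 and 13.2%.

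Over the 44 libraries, the genes whose log2(TPM + 1) was most correlated with that of Rhox5 were also X-linked, apart from the transgene of the host. Among 14689 genes compared, Mageb16, a MAGE family gene, had a Pearson correlation of 0.977, the Xlr genes (X-linked, lymphocyte-regulated) Xlr4b, Xlr3b and Xlr4c had 0.972, 0.967 and 0.966, and mCherry had 0.965. Rhox6 came 13th with 0.910, and Rhox9 1770th with 0.384. Rhox6 was closest to Rhox5 itself (0.910), Xlr5c (0.909), Xlr5a (0.906), mCherry (0.904) and Xlr5b (0.902). These values describe mainly the split between host and stem cell libraries, and libraries of a group share their tissue and preparation.

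By rank the order differed. The Spearman correlation placed Myorg (0.912) and Degs1 (0.895), which are not X-linked, closest to Rhox5. It placed Xlr5c (0.867), Xlr5a (0.853) and Xlr5b (0.847) closest to Rhox6, and Rhox6 itself (0.740) closest to Rhox9. For Rhox9 the Pearson correlations were lower throughout, led by Cga (0.701), Paqr6 (0.637), Ssu2 (0.621), Slc22a3 (0.607) and Susd2 (0.594), with Rhox6 at 0.576. Over the 12 group means Mageb16 (0.989) and Xlr4b (0.988) were closest to Rhox5, Mtus2 (0.957) and Xlr5c (0.955) to Rhox6, and Chpf2 (0.886) and Zfp456 (0.853) to Rhox9.

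The remaining 31 genes of the files with a Rhox name were far below the level of Rhox5 in the extraembryonic groups. Together the 34 genes span 916164 bp of the X chromosome (37213804 to 38129967). Of the 31, 2 were at 0 in all libraries and 19 exceeded 1 TPM in none. Only 12 exceeded 1 TPM in any library, and 1 exceeded 10 TPM (Rhox4a2, at 13 TPM in exMidgut replicate 3). Rhox1, Rhox2a, Rhox2e and Rhox13 exceeded 1 TPM in 3 or fewer libraries, and Rhox2a had its highest value, 4.01 TPM, in emMidgut replicate 1.

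The other 8 of the 12 were copies of Rhox4, which share 48.7 to 98.1% of their windows of 100 bases with each other, so their single values are uncertain. Summed over the 8 copies, Rhox4 was at 36.6 ± 6.62 TPM in exMidgut (28.9 to 43.2), 18.9 ± 8.91 in emMidgut (9.48 to 30.9) and 13.7 ± 5.60 in exHindgut (5.89 to 18.9). It was at 3.79 ± 1.85 in emHindgut and 2.12 ± 1.50 in YsEndo. Rhox4 was thus present in midgut of either origin and low in YsEndo, where Rhox5 was highest.

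Between exGut and emGut 1 of the 8 Rhox4 copies was called, where 2.35% of all genes were. This was Rhox4b, with a difference of 1.56 (SE 0.340, limma adjusted p = 0.0109), and within the hindgut alone it was 1.46 and did not pass (adjusted p = 0.107). Rhox4a2 was lower in exHindgut than in exMidgut (−1.78, adjusted p = 0.0217). That call was lost without exMidgut replicate 3 (−1.55, adjusted p = 0.0726) or 4 (−1.73, adjusted p = 0.0514) and without exHindgut replicate 1 (−1.53, adjusted p = 0.0650) or 4 (−1.55, adjusted p = 0.0646).

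In exEndo 1, YsEndo and the E13.5 extraembryonic cells the Rhox4 copies were mostly under 1 TPM and passed the filter against exGut only through the exGut libraries, so no test of those differences is given. The summed Rhox4 level was 2.89 ± 2.81 TPM in exEndo 1, 5.52 ± 2.25 in exColon and 3.90 ± 6.75 in exSI. Neither of the 2 copies testable between origins at E13.5 was called, and none could be tested at E6.5.

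**Figure D5:**
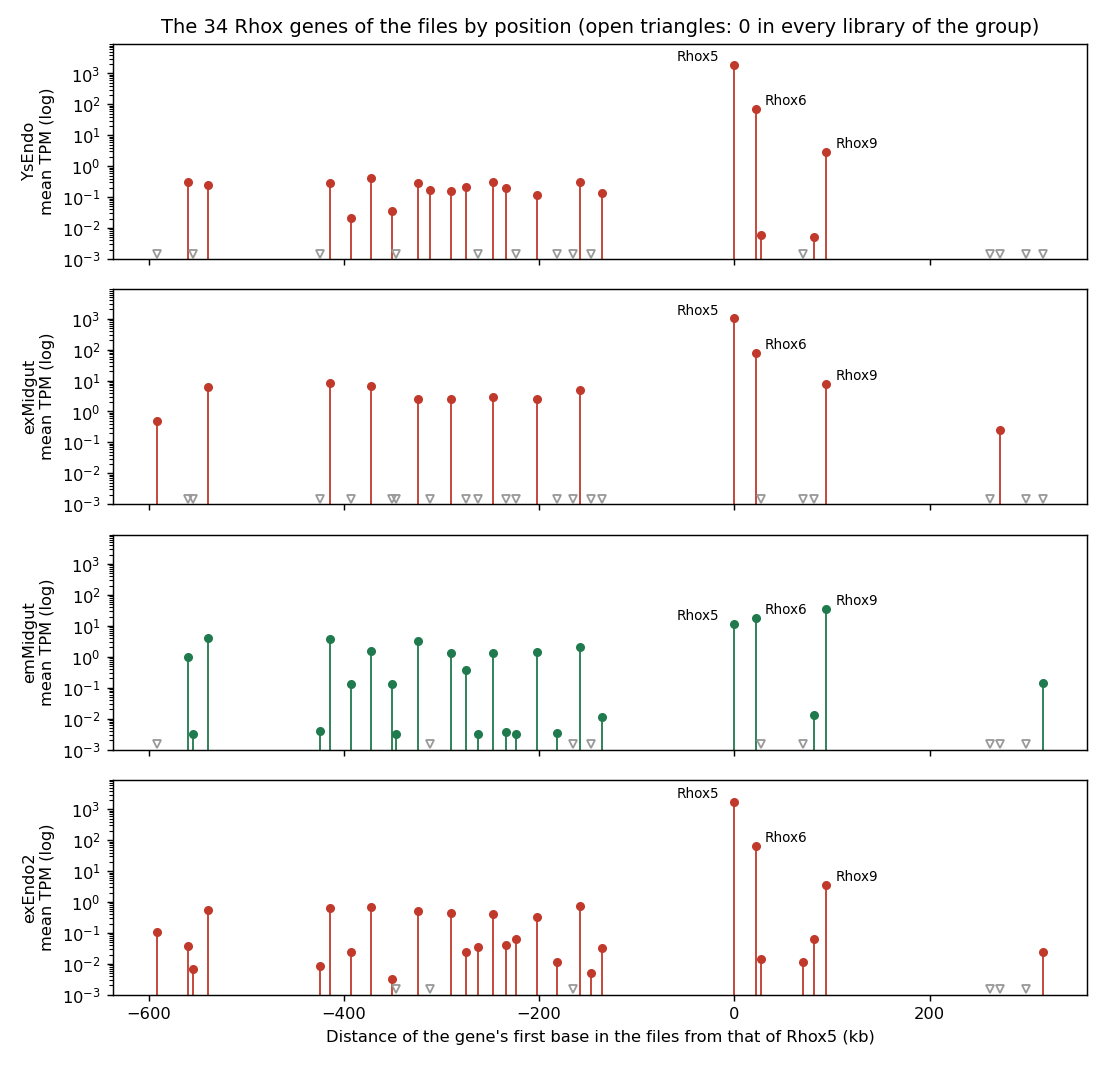
Group mean TPM (vertical axis, logarithmic) of the 34 Rhox genes against the distance of each gene's first base from that of Rhox5 (horizontal axis, kb) in YsEndo, exMidgut, emMidgut and exEndo 2; open triangles mark genes at 0 in every library of the group. Rhox5 stands at 1870 TPM in YsEndo and 11.4 in emMidgut, while the Rhox4 copies to its left, summed, reach 36.6 TPM in exMidgut, 18.9 in emMidgut and 2.12 in YsEndo.

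Genes next to the cluster were read for the same differences. Within 1 Mb on either side, or between the Rhox genes, lie 33 other genes, 29 of them protein-coding. None of the 22 tested was called between exGut and emGut and none of the 18 tested between origins at E13.5. With 2.35% and 0.625% of all genes called, these counts do not set the neighbours apart. Between exEndo 1 and Epi 4 of 18 were higher and 3 lower, a share of 38.9% beside the 33.4% of all genes. Between exGut and YsEndo 4 of 20 were higher and 3 lower (35.0% beside 42.4%).

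Factors that silence genes by DNA methylation or repressive histone marks are known to keep the Rhox cluster shut in the embryo. A list of 13 genes for such factors, which also holds Tet2, a gene that acts against DNA methylation, was read beside it. Between exGut and emGut, and between origins at E13.5, none of the 12 tested was called, where 2.35% and 0.625% of all genes were. At E6.5, 6 of 13 were called as lower and 1 as higher in exEndo 1 than in Epi (median −0.48 beside 0.09 over all genes), and the counts for exEndo 2 were the same. That is 53.8% of the 13 listed genes, beside 33.4% and 35.8% of all genes. The de novo DNA methyltransferases led. Dnmt3b differed by −2.26 in exEndo 1 (SE 0.168, limma adjusted p = 6.11e-07) and −3.00 in exEndo 2 (adjusted p = 1.86e-08), and Dnmt3a by −2.92 (adjusted p = 1.11e-05) and −2.09 (adjusted p = 3.85e-05). Tet2, which oxidizes methylated cytosine and is not itself a silencing factor, was the listed gene that was higher, by 1.77 (adjusted p = 0.000177) and 1.37 (adjusted p = 0.000243).

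Some of these factors also changed within a single origin. Uhrf1, which recruits the maintenance methyltransferase, was higher in exHindgut than in exMidgut by 1.50 (limma adjusted p = 7.89e-05). Between exGut and exEndo 1 Dnmt3a was higher by 2.19 (adjusted p = 2.39e-07) and Dnmt3b lower (difference −3.45, adjusted p = 1.09e-06), and from Epi to emGut Dnmt3b differed by −5.69 (adjusted p = 2.43e-09) and Tet2 by 2.56 (adjusted p = 7.19e-05). Against YsEndo 5 of 12 factors (41.7%) were higher in exGut, near the 32.3% of all genes called as higher and 42.4% called in either direction, among them the corepressor Trim28 (1.82, adjusted p = 2.61e-08). In the E13.5 extraembryonic cells 3 of 12 (25.0%) were lower than in exGut, where 11.3% of all genes were, with Dnmt3b at −2.47 (adjusted p = 0.000590).

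The last genes read were Ezh2 and Eed, Polycomb genes known as regulators of Rhox5, and Ins2 and Unc5c, which are known to answer to it in Sertoli cells. Ezh2, Eed and Unc5c could be tested between exGut and emGut and between origins at E13.5, where Rhox5 differed most, and none of the 3 was called (2.35% and 0.625% of all genes were). Ins2, an insulin gene, was at 1.62 ± 0.660 TPM in exEndo 1 and 3.72 ± 2.79 in YsEndo, and was listed at 0 in every Epi, E9.5 gut and E13.5 library. Unc5c, a netrin receptor, was at 15.3 ± 4.94 TPM in exHindgut and 20.3 ± 2.37 in emHindgut, beside 4.55 ± 3.14 in exMidgut and 2.33 ± 1.42 in emMidgut, and at most 0.0132 in YsEndo. It was lower at E13.5 than in exGut (difference −2.44, limma adjusted p = 0.000699), where 14.7% of all genes were called.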

How the data were processed

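RNA was measured in 44 libraries of 12 groups. Per the labels, the authors used cutadapt 4.1 for trimming, STAR 2.7.9a for alignment to mm10 plus GFP and mCherry, and StringTie 2.0.6 for quantification, with GENCODE VM23 as annotation. TPM values as deposited were used for all results. The FPKM values of the authors served as an alternative, and the deposited coverage (signal) gave the depth, 3.53 to 12 Gb of aligned bases per library. In each library 3 to 11 rows shared an identifier with another row and were summed. Gene types came from GENCODE vM21, which holds 32235 of the 32287 identifiers, and the printed sequences from its transcripts. The RefSeq promoter table listed 1 of the 3 genes.

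Only protein-coding genes outside the Y chromosome that exceeded 1 TPM in 4 or more libraries of a comparison entered it (3 or more at E13.5). They were compared as log2(TPM + 1) by limma 3.58.1 under R 4.3.3, with a mean-variance trend in its empirical Bayes step, two-sided tests and Benjamini-Hochberg adjustment over all genes tested. Genes were called at an adjusted p under 0.05 together with an absolute difference over 1, and interactions by the p alone. This scale understates differences of low genes. Proportions and correlations were computed in Python 3.11.15 with SciPy 1.17.1, NumPy 2.4.6 and pandas 2.3.3. The limma step was tested on simulated data with known changes. Named genes were the 3 members, the 5 genes most correlated with each, and the Rhox genes and genes of the fixed lists that were called, with markers of other cell types beside them. Some results of a list of known regulators are not reported here. Rhox1, Rhox2a, Rhox2e and Rhox13 were named after their values were seen. Members and lists were chosen with earlier results of these data known. Replicate numbers paired exEndo 1 with exEndo 2, where all 4 same-numbered pairs correlated (0.148 to 0.387). Between other groups the same-numbered correlations reached at most 0.176, so pairing was neither shown nor excluded there. All 3 exColon and all 3 exSI libraries still correlated best with the embryonic library of their own number, as did 3 of 4 exMidgut and 3 of 4 exHindgut libraries. Whether E9.5 libraries of different groups came from the same embryos is not given in the sources used here. Settings tried as alternatives were another pseudocount (0.1), no expression filter, quantile and median-ratio scaling, FPKM, no variance trend, all gene types, all 44 libraries together, 1 region or organ alone, a replicate block and leaving out each library.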

Additional observations from a re-analysis of the deposited data

Results flagged for a closer look

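In 4 of the 23 groups of 4 libraries tested, the highest library stood apart from the others, its gap to the nearest, divided by the whole range, exceeding Dixon's critical value for 4 samples. Chance alone flags a few percent of such groups, and most values here lie near 0, where a single library above 0 is enough.

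For Rhox5 in Epi, replicate 1 was at 13.4 TPM, whereas the other libraries were at 0.765 to 0.850. Dppa3 in the same Epi libraries was at 19.2, 2.56, 4.81 and 3.44 TPM, mCherry at 0.822, 0, 0.0953 and 0, and visceral endoderm markers summed to 11.7 to 14 in all 4. The part of other cells in this library was not tested.

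For Rhox6 in emMidgut, replicate 1 was at 64.2 TPM, and the next library at 10.3. For Rhox6 in emHindgut, replicate 3 was at 1.18 TPM and the others were listed at 0. For Rhox9 in Epi, replicate 1 was at 0.0894 TPM, again with the others at 0.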

How the results depend on the processing

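For Rhox5, Rhox6 and Rhox9, 781 alternative values were computed for 40 results, and 733 kept their direction and their side of the threshold, while 5 lost it, 17 gained it and 26 changed sign. Each extraembryonic minus embryonic call of Rhox5 was kept under every alternative run, and each of Rhox6 under all but 1: Rhox6 between exGut and emGut was 3.66 in the midgut alone (adjusted p = 0.0744). Rhox6 between exEndo and Epi could not be fitted without an exEndo library, and Rhox9 in the hindgut alone could not be fitted, since the filter removed them. Where another value differs, its cause was not tested, apart from the proportions on FPKM, described below.

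For exGut minus emGut, Rhox9 was 2.74 without emMidgut replicates 1 and 3, the only emGut libraries that hold it, and −0.53 in the midgut alone, and the Rhox5 interaction was −0.41 without those libraries. For exGut minus YsEndo, Rhox5 was −1.04 with all 44 libraries (adjusted p = 0.0755), −0.87 for exMidgut only, −1.63 after median-ratio rescaling and −1.10 to −0.99 when 1 library was left out. Rhox6 there was −0.22 after median-ratio rescaling and −0.14 for exMidgut only, and Rhox9 was −0.092 after quantile normalization. For exHindgut minus exMidgut, leaving out 1 library gave 0.62 to 1.39 for Rhox6 and −0.46 to 1.15 for Rhox9. For YsEndo minus exEndo 2, Rhox9 was 0.10 with a pseudocount of 0.1, 0.42 after quantile normalization, 0.30 after median-ratio rescaling and −0.46 to 0.38 with 1 library left out.

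For emGut minus Epi, Rhox5 was −0.32 with a pseudocount of 0.1, −0.10 after quantile normalization, −0.55 without emMidgut replicates 1 and 3 and −0.083 to 1.06 with 1 library left out, the sign turning without emMidgut replicate 1 (−0.03) or 3 (−0.083). For E13.5 extraembryonic minus exGut, Rhox6 was −0.070 for exSI against exMidgut and −0.11 to 0.35 with 1 library left out, and Rhox9 was −1.92 with all 44 libraries (adjusted p = 0.0313) and −2.46 to −1.65 with 1 library left out. Rhox9 met the filter of this comparison through exGut. The Rhox9 to Rhox5 proportion between exGut and exEndo 1 was 4.48 with a pseudocount of 0.1 (exact permutation, adjusted p = 0.0759).

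On FPKM the proportions changed by −2.05 (Rhox6, exEndo 1 minus exEndo 2), 1.88 (Rhox9, exGut minus YsEndo) and −1.85 (Rhox9, E13.5 minus exGut), each then past the threshold. Within a library FPKM is TPM times a constant, so these shifts come from the added 1 and are no further evidence. With 1 library left out the Rhox6 proportion ranged from 1.27 to 1.64 (exGut minus YsEndo) and −0.43 to 0.23 (E13.5 minus exGut), and the Rhox9 proportion from 1.61 to 2.25 and −2.70 to −1.91. A replicate block, which pairs libraries of the same number, brought Rhox6 between exHindgut and exMidgut past the threshold (1.01, limma adjusted p = 0.0484). Whether those numbers pair the libraries is not known. The block changed no other call of the 3 genes, exEndo 1 against exEndo 2 included. With the block 8 genes passed the E9.5 interaction in place of 13.

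The genes called between exGut and emGut numbered 316, and 591 with all 44 libraries in a single fit or 587 with region as a covariate. The same single fit gave 458 in place of 732 for exEndo 1 against exEndo 2, 1207 in place of 78 between origins at E13.5 (30 in the colon alone), and 47 and 1409 in place of 13 and 2 for the interactions. E13.5 extraembryonic minus exGut gave 1985, and 1281 for exColon against exHindgut. Median-ratio rescaling lowered the share of calls that were higher from 76.3 to 54.2% for exGut minus YsEndo and from 75.4 to 57.6% for emGut minus Epi, and raised it from 26.9 to 56.9% for YsEndo minus exEndo 2 and from 23.6 to 35.3% for E13.5 minus exGut. Quantile normalization lowered it from 62.1 to 49.4% for exGut minus exEndo 1.

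Depth in reads is unknown per gene, so a value listed at 0 sets no upper limit, and Rhox9 values under 1 TPM carry no known precision.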
